A study of Rattus norvegicus with 4 samples.

Results

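Mmp7, Lcn2, Gpx2 and Plac8 are 4 genes of epithelial defence whose array signals differed between the arrays numbered 1 and those numbered 2 in cultured neonatal rat ovaries. They were chosen for that difference, so the difference between replicate numbers is described here without a test. Each gene was measured by 1 probe set that carries its symbol alone: 1368766_at for Mmp7, 1387011_at for Lcn2, 1374070_at for Gpx2 and 1371447_at for Plac8. They were 4 of the 14217 genes with such a probe set. All 4 probe sets, of 31042 in all, passed the filter on dim signals that left 18625 probe sets.

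The study asked how glial cell line-derived neurotrophic factor (GDNF) acts on the development of primordial follicles, the resting follicles of the newborn ovary. Ovaries of pups aged 4 days were kept for 2 days in whole organ culture on floating filters, either with no added factor (control) or with GDNF, and groups are taken from the titles. The medium of both groups held insulin at 200 ng/ml, transferrin at 27.5 ug/ml, ascorbic acid at 0.05 mg/ml, BSA and albumax. Each of the 2 control and 2 GDNF samples was RNA of 6 to 10 pooled ovaries on 1 Affymetrix array. Strain and GDNF dose are not given in the sources used here, and the protocol text of the GDNF samples repeats that of the controls. The labels do not say what a replicate number marks, whether a litter, a culture day or only a count, so any p-value covers only how these samples scatter, which may be technical.

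Epithelia that face a lumen or body cavity hold off microbes with secreted enzymes, binding proteins and antioxidant enzymes, many of them induced by inflammatory signals. Mmp7 (matrilysin) is a small secreted metalloproteinase of glandular epithelia that cleaves matrix and activates pro-defensins in the gut of mice. Lcn2 (lipocalin 2) binds bacterial siderophores and so withholds iron, and is made by stimulated epithelia and by neutrophils. Gpx2 is the gastrointestinal glutathione peroxidase, a selenoprotein that reduces hydroperoxides. Plac8 (onzin) is a small cysteine-rich protein of placenta, epithelia and leukocytes. In the ovary, epithelial cells form a surface layer around follicles and stroma. Whole ovaries were measured, so fewer cells of a type and less RNA per cell cannot be told apart.

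The promoter windows of the 4 genes are shown as context for their description, and the choice of the genes on the array values gives no reason to look for shared motifs. All 4 genes were found in RefSeq (build GRCr8). Each window runs from 250 bases before to 50 bases after the gene's start and is printed 5′ to 3′ on the gene's own strand, with matches to 7 short motifs in capitals. Mmp7 lies at chr8:13132793-13133092 on the plus strand, Lcn2 at chr3:36081731-36082030 on the minus strand, Gpx2 at chr6:101229984-101230283 on the minus strand and Plac8 at chr14:9356700-9356999 on the plus strand.
Mmp7: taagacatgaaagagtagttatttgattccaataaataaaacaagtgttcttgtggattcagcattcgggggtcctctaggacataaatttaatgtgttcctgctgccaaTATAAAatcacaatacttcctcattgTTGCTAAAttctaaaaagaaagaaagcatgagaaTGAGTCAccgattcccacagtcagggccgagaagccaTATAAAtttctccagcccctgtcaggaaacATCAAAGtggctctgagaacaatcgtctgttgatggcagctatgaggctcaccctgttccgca
Lcn2: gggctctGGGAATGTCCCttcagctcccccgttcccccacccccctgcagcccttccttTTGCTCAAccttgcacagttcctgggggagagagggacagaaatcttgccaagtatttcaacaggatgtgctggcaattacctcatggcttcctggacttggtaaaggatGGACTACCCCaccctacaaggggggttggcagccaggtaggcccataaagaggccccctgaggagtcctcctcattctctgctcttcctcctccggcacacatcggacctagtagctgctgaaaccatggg
Gpx2: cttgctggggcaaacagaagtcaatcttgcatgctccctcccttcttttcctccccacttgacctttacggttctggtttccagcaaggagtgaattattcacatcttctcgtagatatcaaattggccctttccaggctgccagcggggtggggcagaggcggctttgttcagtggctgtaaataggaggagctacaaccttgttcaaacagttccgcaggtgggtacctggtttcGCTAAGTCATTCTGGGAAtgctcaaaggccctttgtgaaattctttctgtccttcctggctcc
Plac8: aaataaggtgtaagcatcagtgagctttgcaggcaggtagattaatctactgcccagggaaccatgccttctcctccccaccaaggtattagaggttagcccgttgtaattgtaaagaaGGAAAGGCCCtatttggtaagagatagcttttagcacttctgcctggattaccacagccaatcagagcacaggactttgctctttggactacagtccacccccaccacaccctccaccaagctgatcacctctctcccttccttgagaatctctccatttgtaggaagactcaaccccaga

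Both strands were searched for NF-kB (GGG, any 5 bases, then CC), AP-1 (TGANTCA), the antioxidant response element (TGACNNNGC), C/EBP (TTGCNNAA), STAT (TTCNNNGAA), TCF/LEF (CTTTGAT) and the TATA box (TATAAA). The Mmp7 window held TATAAA starting 140 and 43 bases before the start, TTGCTAAA at 114, TGAGTCA at 80 and, on the other strand, CTTTGAT at 13. The Lcn2 window held GGGAATGTCC starting 243 bases before the start, which overlaps a match on the other strand, a further NF-kB match at 81 and TTGCTCAA at 191. In the Gpx2 window TGACTTAGC lay on the other strand 13 bases before the start, directly beside the STAT match TTCTGGGAA at 4. The Plac8 window held 1 match, GGGCCTTTCC on the other strand, 131 bases before the start. No motif was found in all 4 windows. The NF-kB letters were found in 47.3% of the 33469 RefSeq windows of this length, so their presence in Lcn2 and Plac8 is common. The other shares were 14.2% for the TATA box, 12.1% for the antioxidant response element, 10.6% for C/EBP, 8.87% for STAT, 7.33% for AP-1 and 3.63% for TCF/LEF. A match describes the letters in the window and not a bound site.

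Pairs of values are given with the array numbered 1 first and the array numbered 2 second, control before GDNF. The signal of Mmp7 was 173.7 and 33.2 without GDNF, and 377.3 and 20.9 with it. Signals are the authors' MAS5 values on a linear scale. The replicate 1 array was 5.23 times the replicate 2 array in control and 18.1 times in GDNF. On the log2(signal + 1) scale used from here on, replicate 2 minus replicate 1 was -2.35 in control and -4.11 in GDNF. This was the lowest mean difference (-3.23) of the 18625 probe sets. The lowest Mmp7 signal lay near the filter, a signal of about 21.4, where MAS5 values are noisy.

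Gpx2 had 189.8 and 69.4 in control, and 294.3 and 56.6 with GDNF. Both replicate 1 arrays were high and both replicate 2 arrays low, with differences of -1.44 in control and -2.36 in GDNF. Plac8 had 260.2 and 89.8 in control, and 360.5 and 80.3 with GDNF, in the same order of replicates. Its differences were -1.52 in control and -2.15 in GDNF. The profiles of Gpx2 and Plac8 nearly coincided, with a root mean square distance of 0.08 between their centred log2 values over the 4 arrays, against 0.57 to 1.32 for the pairs that include Lcn2 and 0.70 and 0.75 for Mmp7 with Gpx2 and with Plac8.

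Lcn2 showed the same split at a smaller size. Its signal was 970.5 and 578.0 in control and 995.1 and 586.6 with GDNF, a difference of -0.75 in control and -0.76 in GDNF. Mmp7, Gpx2 and Plac8 had one order of arrays, with GDNF replicate 1 highest, then control replicate 1, control replicate 2 and GDNF replicate 2. That order was found in 8.02% of all probe sets tested. For Lcn2 the replicate 2 arrays changed places.

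**Figure D1:**
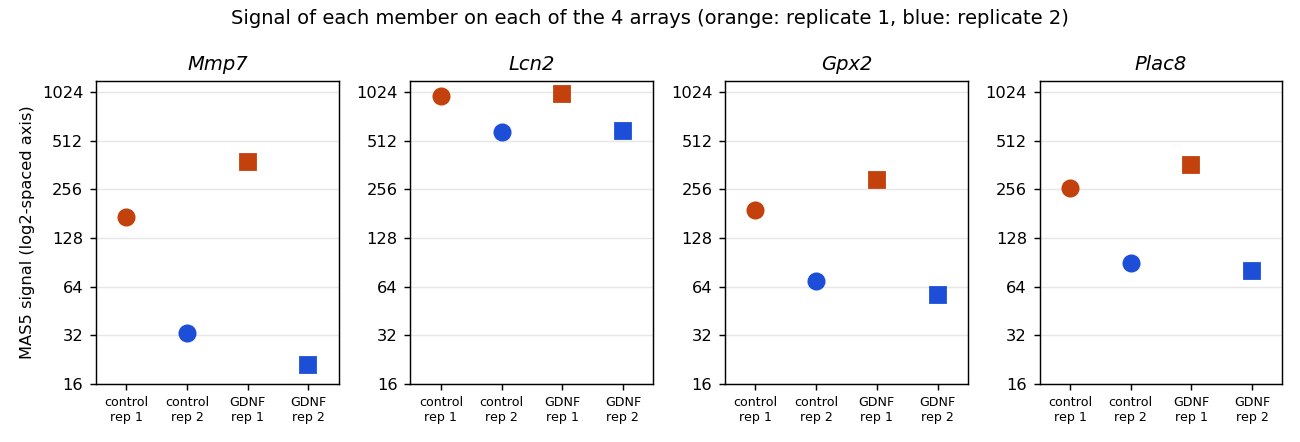
MAS5 signal (log2-spaced axis) of Mmp7, Lcn2, Gpx2 and Plac8 on each array, 1 point per array, circles for control and squares for GDNF, orange for replicate 1 and blue for replicate 2. In each panel both replicate 1 points lie above both replicate 2 points, and the gap for Mmp7 in GDNF runs from 377.3 to 20.9.

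In all 4 genes the replicate 2 arrays lay below the replicate 1 arrays without overlap, as did 22.6% of all probe sets tested. Mmp7, Gpx2 and Plac8 were at least 2-fold lower in replicate 2 in both groups, and Lcn2 was not. By that rule 40 probe sets (0.215%) were lower and 14 (0.0752%) higher in replicate 2, or 30 and 19 after median centring of the arrays. Since the genes were picked on this contrast, nothing is read from these shares. The median difference was -1.87 over the 4 genes and -0.01 over all probe sets tested.

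**Figure D2:**
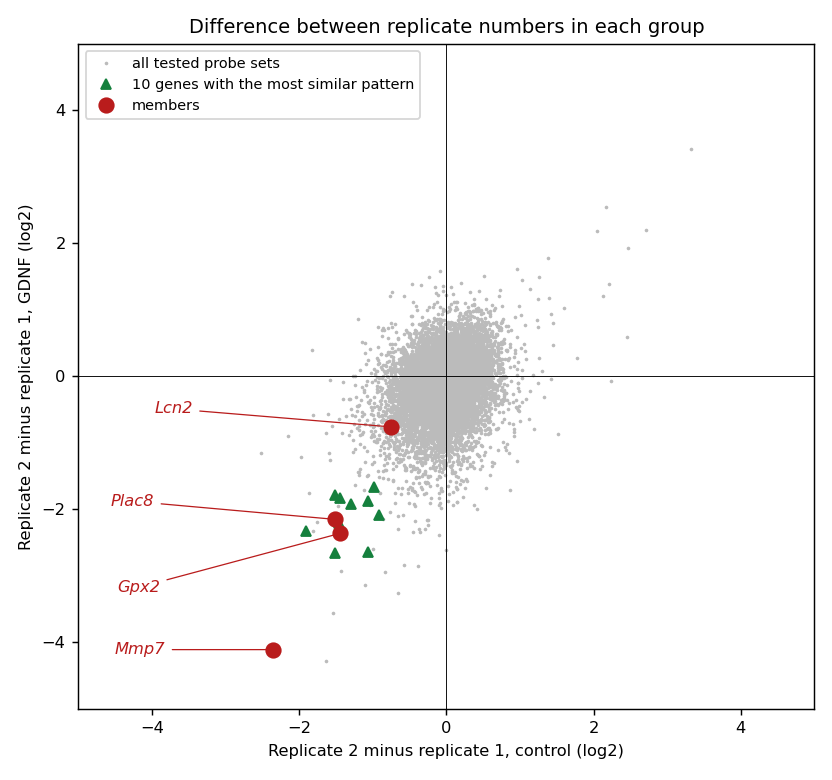
Replicate 2 minus replicate 1 (log2) in control on the x axis and in GDNF on the y axis, 1 point per probe set, for all 18625 probe sets tested (grey), the 10 genes most similar in pattern (green triangles) and the 4 genes (red). Mmp7 lies at -2.35 and -4.11, while Lcn2 lies at the edge of the grey cloud at -0.75 and -0.76.

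GDNF against control was the comparison the study made, and its fold change is balanced over the replicate numbers on which the genes were chosen. The standard errors, intervals and p-values are not free of that choice. The limma model held the group alone, so the gap between replicate numbers counts as scatter. Mean signals were 103 ± 99.3 in control and 199 ± 252 in GDNF for Mmp7 (SD, n = 2 each), and 774 ± 278 and 791 ± 289 for Lcn2. They were 130 ± 85.1 and 175 ± 168 for Gpx2, and 175 ± 120 and 220 ± 198 for Plac8. In each gene the range of the control arrays overlapped that of the GDNF arrays. This had to be so, because both replicate 1 arrays lay above both replicate 2 arrays, and nothing on GDNF is read from it. The log2 fold changes were 0.24 (SE 1.27) for Mmp7, 0.03 (SE 0.30) for Lcn2, 0.17 (SE 0.75) for Gpx2 and 0.15 (SE 0.71) for Plac8, each smaller than its standard error (limma, adjusted p = 0.999 for all 4).

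The intervals around these values were wide, and their width includes the gap between replicate numbers for which the genes were chosen. The 95% interval ran from -0.68 to 0.73 for Lcn2, from -1.52 to 1.83 for Plac8, from -1.59 to 1.93 for Gpx2 and from -2.75 to 3.22 for Mmp7. The interval of Mmp7 covers changes of several fold either way. Limma called 0 of the 18625 probe sets (0.0%) at an adjusted p under 0.05, and 508 (2.73%) at an unadjusted p under 0.05. The latter count was 142 without control replicate 1, 352 without control replicate 2, 1927 without GDNF replicate 1 and 1431 without GDNF replicate 2. With 2 arrays against 2, an exact permutation test cannot give a two-sided p below 0.333.

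Set side by side within a replicate number, GDNF minus control went opposite ways in 3 of the genes. Between the replicate 1 arrays it was 1.11 for Mmp7, 0.63 for Gpx2 and 0.47 for Plac8. Between the replicate 2 arrays it was -0.64, -0.29 and -0.16 in the same order. Lcn2 had 0.04 and 0.02. With 1 array per group and number, these differences could not be tested. Leaving out 1 array also leaves the numbers unbalanced, and without either of 2 arrays the direction turned. Without control replicate 2 the log2 fold changes were -0.94 for Mmp7, -0.34 for Lcn2, -0.55 for Gpx2 and -0.61 for Plac8. Without GDNF replicate 1 they were -1.82, -0.35, -1.01 and -0.92.

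**Figure D3:**
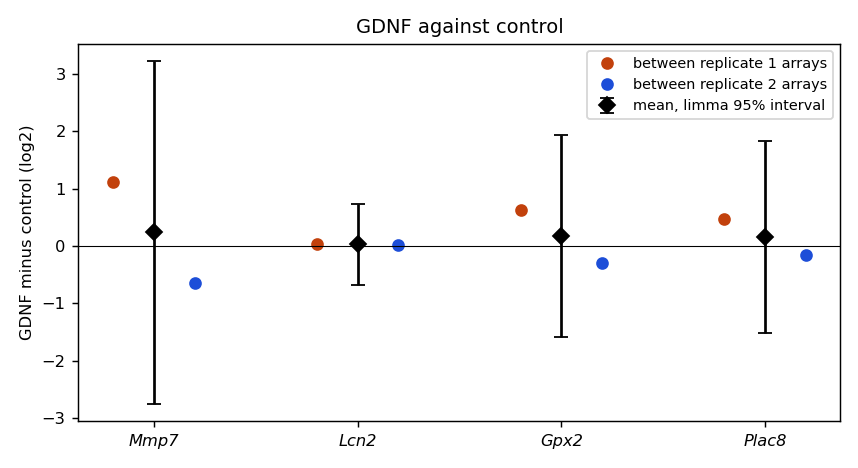
GDNF minus control (log2) for each gene, as the difference between the replicate 1 arrays (orange), between the replicate 2 arrays (blue) and as their mean with limma's 95% interval (black diamonds and bars). All 4 intervals cover 0, and for Mmp7 the orange and blue points lie at 1.11 and -0.64.

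Other epithelial antimicrobial and secretory genes had the same direction between replicate numbers. Of the 28 genes on that list, 26 had a probe set and 17 were tested, the 4 genes above included. All 17 had a lower mean in replicate 2, as did 9779 of all 18625 probe sets tested. After quantile normalization 16 did, against 8868 of all, and after median centring 16, against 6414 of all. Without the 4 genes, 13 of 13 were lower with a median of -0.69. Of these, 10 were lower without overlap (22.6% of all probe sets tested), and 1 was at least 2-fold lower in both groups. The list was chosen with earlier results of these data known, so these counts are a description and no independent support. Slpi, a secreted inhibitor of leukocyte proteases, had 109.0 and 69.0 in control and 367.4 and 73.9 with GDNF, so GDNF replicate 1 stood apart from the others. The C-type lectins Reg3g (-0.66 in control and -3.26 in GDNF) and Reg3b (-0.66 and -2.10) also had the larger difference in GDNF, which was not tested. Reg3g had a signal of 9.8 on GDNF replicate 2, below the filter's 21.4, so that its value in GDNF rests on a noisy low signal.

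Chi3l1, a secreted chitinase-like protein, was the gene outside the 4 that was at least 2-fold lower in both groups, with 191.5 and 83.2 in control and 153.2 and 56.2 with GDNF. Tff3, a trefoil peptide of mucous epithelia, was at the other end of the list, with a mean difference of -0.06. The 9 genes below the filter included the mucin Muc4 (18.7, 7.7, 48.6 and 11.6 in control 1, control 2, GDNF 1 and GDNF 2). They did not all go the same way. Ceacam1 (13.4 and 23.2) and Lbp (12.9 and 13.6) were higher in replicate 2 in control, and Camp (0.6 and 0.9) in GDNF. The rest were lower in replicate 2 in both groups. MAS5 values are noisy at such low signals. Between GDNF and control the list had 9 higher and 8 lower means, a median of 0.03 and 0 genes past the limma threshold. Groups without overlap were found in 1 gene higher and 1 gene lower in GDNF, where all probe sets tested gave 13.4% and 16.6%. The 14 genes of the list whose replicate numbers did not overlap could not be among these. Nothing on GDNF is therefore read from that count.

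**Figure D4:**
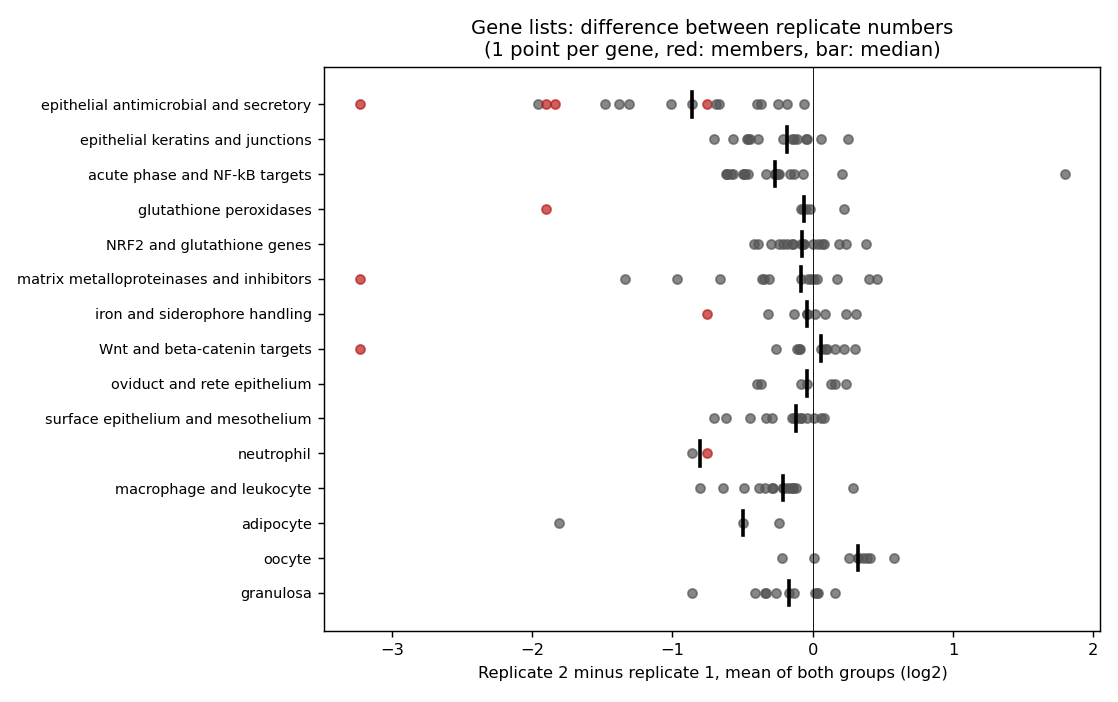
Replicate 2 minus replicate 1 (log2, mean of both groups) for the tested genes of each list, 1 point per gene, the 4 genes in red and the median of each list as a black bar. The median was -0.86 for the epithelial antimicrobial and secretory list and 0.32 for the oocyte list.

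The enzyme families of Mmp7 and Gpx2 held genes in both directions. Among 15 metalloproteinases and inhibitors tested, 10 were lower and 5 higher in replicate 2, where 9779 of all 18625 probe sets were lower. After median centring 7 were lower and 8 higher, against 6414 and 12211 of all. The list median was -0.08, which turned to 0.02 after median centring and was -0.31 when all probe sets of a gene were averaged. Mmp13, an interstitial collagenase, had 52.8 and 40.4 in control and 153.6 and 30.5 with GDNF. Mmp11, a stromal metalloproteinase, was highest in the list at 0.46. The other glutathione peroxidases tested, Gpx1, Gpx3, Gpx4, Gpx7 and Gpx8, had mean differences between -0.08 and 0.22. The 18 genes of NRF2 and glutathione metabolism, among them known partners of Gpx2 in peroxide defence, had a median of -0.08 (0.03 after median centring), from Hmox1 at -0.42 to Me1 at 0.38.

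Acute phase and NF-kB target genes were lower in replicate 2 in 19 of 21 (9779 of 18625 over all probe sets tested), 15 of them without overlap (22.6% of all probe sets tested), with a median of -0.27 (-0.17 after median centring). Stat3, a transcription factor of cytokine signalling, was lowest at -0.62 (561.3 and 373.0 in control, 576.5 and 368.9 with GDNF). Ccl20, a chemokine of epithelia, went the other way at 1.80. It had 15.5 and 75.3 in control and 39.9 and 106.2 with GDNF. Among 9 iron-handling genes, Lcn2 was lowest. Its receptor Slc22a17 had a mean difference of 0.02, and the iron exporter Slc40a1 was highest at 0.31. The list median was -0.04, which became 0.06 after median centring. The Wnt and beta-catenin target list, which holds Mmp7, had a median of 0.06 over 11 genes, and -0.08 when all probe sets of a gene were averaged. The Wnt target Axin2 had -0.09, and Tcf7, a transcription factor of the pathway, was highest at 0.30.

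The 10 genes nearest the mean profile of the 4 were found by the root mean square distance of centred log2 values over the 4 arrays. Gpx2 (0.03) and Plac8 (0.07) themselves lay near that mean profile. Lcn2 (0.63) and Mmp7 (0.69) lay further from it than any of the 10 genes. The 10 are thus most like Gpx2 and Plac8, and less like Lcn2 and Mmp7. Il6st, the signalling receptor subunit shared by the interleukin 6 family, was nearest at a distance of 0.06, with 398.1 and 143.7 in control and 599.4 and 128.7 with GDNF. It had 4 probe sets tested, and in the other 3 the mean difference between replicate numbers was -0.21 to -0.54 against -1.84 in this one. Cxcl10 (0.15) and Cxcl11 (0.23), interferon-induced ligands of Cxcr3, were also among the 10. Cxcl10 had 201.4 and 53.0 in control and 239.5 and 47.1 with GDNF.

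The others were Upk3bl1, a uroplakin-like protein (0.19), the potassium channel Kcnk1 (0.21), Eeig2 (0.22), Pnoc, the nociceptin precursor (0.26), the peptidase Prcp (0.26), Plet1, a surface protein of epithelial progenitors and trophoblast (0.27), and the uridine phosphorylase Upp1 (0.30). The median distance of all probe sets tested was 0.99. Plet1 had 3 probe sets tested, and all had a mean difference between -2.55 and -2.08. For Prcp and Eeig2 the other probe set had a smaller difference, -0.32 and -0.55. The list was ranked on the contrast that chose the 4 genes, and 4 arrays carry little information on likeness.

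**Figure D5:**
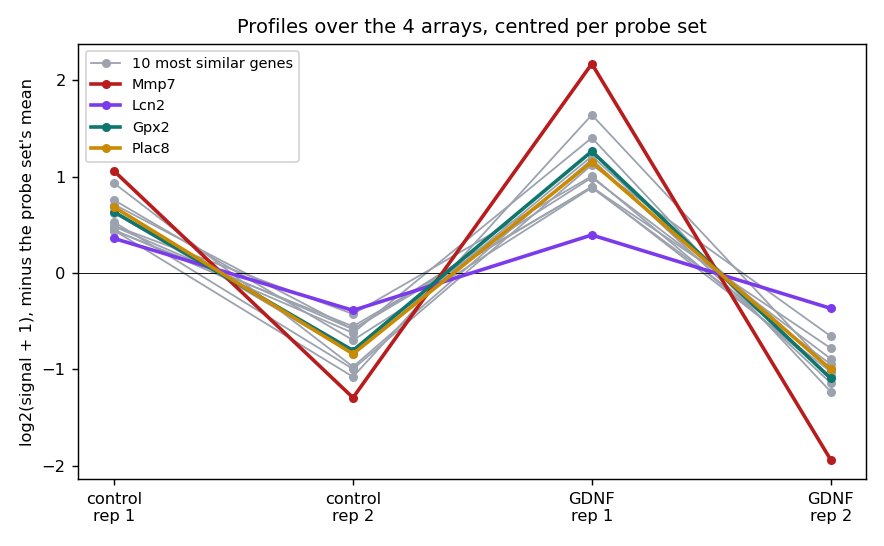
Centred log2(signal + 1) of the 4 genes (coloured lines) and of the 10 genes nearest their mean profile (grey lines) on the 4 arrays. Gpx2 and Plac8 run almost on top of each other (distance 0.08), Mmp7 swings widest and Lcn2 least.

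Of 14 keratin and junction genes tested, 12 had a lower mean in replicate 2, where 9779 of all 18625 probe sets did. Krt18, a keratin of simple epithelia, was lowest at -0.70, and its partner Krt8 had -0.45. Epcam, an adhesion molecule of epithelia, had 423.3 and 429.0 in control and 432.0 and 399.4 with GDNF, and the keratin Krt7 had 480.7, 482.6, 377.4 and 357.1. The list median was -0.18 (-0.07 after median centring), Esrp1, a splicing factor of epithelia, was highest at 0.25, and 6 were lower without overlap (22.6% of all probe sets tested). For 14 surface epithelium and mesothelium genes the median was -0.12 (-0.02 after median centring), from Krt18 to Aldh1a1 at 0.08. Their summed signal was 11522 and 10100 in control and 9442 and 8905 with GDNF, lower in replicate 2 within each group, with both GDNF arrays below both control arrays. Of the oviduct and rete list 7 of 15 genes were tested, from Wfdc2 at -0.40 to Pax8 at 0.24, with a summed signal of 1131, 1075, 945 and 892. Its defining transcription factor Pax2 was dim, at 2.2 to 5.6, and no measured gene of these lists was at 0.

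Most leukocyte markers had a lower mean in replicate 2. Of 17 macrophage and leukocyte genes 15 were tested and 14 were lower in replicate 2, where 9779 of all 18625 probe sets were. After median centring 14 were, against 6414 of all. The list median was -0.21 (-0.11 after median centring). Of the 15 tested, 8 were lower without overlap in the main setting (22.6% of all probe sets tested). In the other 7 the replicate numbers overlapped. Their summed signal was 2473 and 2041 in control and 2554 and 1883 with GDNF. Cd74, the invariant chain of antigen presentation, was lowest at -0.80, and C1qb, a complement subunit of macrophages, highest at 0.29. Of 12 neutrophil genes 8 had a probe set, and those tested were Lcn2 and S100a9 (-0.86). The other 6 had signals of 0.4 to 18.6, none of them 0, and the receptors Csf3r and Cxcr2 stayed at or below 6.5. The summed neutrophil signal, most of it Lcn2, was 1112, 672, 1212 and 671. The part of leukocytes in the differences of the 4 genes was not tested.

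Few fat cell markers passed the filter, 3 of 10 genes. Fabp4, a fatty acid carrier of adipocytes and endothelium, was lowest of these at -1.81, and Adipor2 highest at -0.24, while Adipoq, which defines adipocytes, lay below the filter with signals of 3.8 to 13.2. The median of the 3 was -0.50 (-0.40 after median centring). The 9 measured adipocyte genes summed to 399 and 276 in control and 354 and 246 with GDNF, and none was at 0. Of 9 oocyte genes tested, 8 had a higher mean in replicate 2, where 8845 of all 18625 probe sets did. After median centring 8 did, against 12211 of all. In the main setting 4 were higher without overlap (20.9% of all probe sets tested), and the median was 0.32 (0.43 after median centring). Ybx2, an RNA-binding protein of germ cells, was highest at 0.58 and the oocyte growth factor Bmp15 lowest at -0.22, with the receptor Kit at 0.01. Oocyte signals summed to 4440 and 5582 in control and 5761 and 7272 with GDNF. Granulosa genes had a median of -0.17 over 11 (-0.07 after median centring, -0.32 with averaged probe sets), from Hsd17b1 at -0.86 to Wnt4 at 0.16, and sums of 6075, 5488, 6101 and 5746. Oocyte and granulosa markers were thus measured on every array of the labelled tissue. The part of these cell types in the differences was not tested.

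The ratios of control probe sets overlapped between the replicate numbers, and the median signal did not. The ratio of 3′ to 5′ control probe sets ran from 2.62 to 3.76 for beta-actin, lowest in GDNF replicate 1, and from 1.11 to 1.44 for Gapdh, highest in GDNF replicate 2. The median signal of both replicate 1 arrays, at most 41.1, lay above that of both replicate 2 arrays, at 38.6 in control and 36.7 with GDNF. This is the direction of the 4 genes. After median centring of the arrays the mean difference was -3.13 for Mmp7, -0.65 for Lcn2, -1.79 for Gpx2 and -1.73 for Plac8. Precision is limited throughout by the small number of arrays.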

How the data were processed

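RNA of 2 control and 2 GDNF pools was hybridised to 1 Affymetrix rat array each, grouped by title. The deposited values are intensities on a linear scale. Per the submitters' processing notes, MAS5 was used. MAS5 subtracts a mismatch estimate, which makes low signals noisy, and scales each array, so a change in total RNA cannot be seen. Of 31099 probe sets, 57 Affymetrix controls were left out. Symbols came from the platform annotation held by GEO (20826 with 1 symbol, 436 with several, 9780 with none), and 20758 Entrez identifiers were found in RefSeq (GRCr8) with 0 symbols changed.

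The analysis scale was log2(signal + 1). The 18625 probe sets with a mean at or above the 40th percentile were tested with limma 3.58.1 in R 4.3.3 (lmFit, eBayes with trend, group as the only term), two-sided, with Benjamini-Hochberg adjustment over all of them and a threshold of 0.05. The code was tested on simulated data. Replicate 2 minus replicate 1 was taken within each group and averaged, with no test. Lists used the brightest probe set of a gene. Genes were named by rule: the 4 genes, the 10 most similar in pattern, the 5 most different between numbers in each direction, and the highest and lowest of each list. Other genes were named for their role or after their values were seen. Among these were Slpi, Reg3b, Reg3g, Chi3l1, Muc4, Ceacam1, Lbp, Camp, Mmp13, the glutathione peroxidases, Slc22a17 and Axin2. The rest were Epcam, Krt7, Krt8, Pax2, Kit, S100a9, Csf3r, Cxcr2 and Adipoq. The 4 genes and the lists were chosen with earlier results of these data known. Settings varied in turn were the normalization (quantile, median centring), the filter (60th percentile, none), the pseudocount (16), the trend in eBayes (omitted), averaging of a gene's probe sets, a block for the replicate number, and each array left out.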

Additional observations from a re-analysis of the deposited data

How the results depend on the processing

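The 4 genes were lower in replicate 2 under each pseudocount, filter and scaling tried and within each group. Lcn2, at -0.75 in the main setting, was -0.74 with a pseudocount of 16, -0.79 after quantile normalization and -0.65 after median centring, and Mmp7, averaged over both groups, ran from -2.68 with that pseudocount to -3.23. The number of probe sets at least 2-fold lower in replicate 2 in both groups was 17 with a pseudocount of 16, 542 with no filter and 16 with a filter at the 60th percentile; the calls that no filter adds lie below the filter by construction. It was 109 within control alone and 503 within GDNF alone. The number higher was 9, 234, 5, 43 and 70 under the same settings. Averaging the probe sets of a gene moved list medians to -0.11 for NRF2 and glutathione genes, -0.31 for metalloproteinases, -0.08 for Wnt targets (a turned sign) and -0.32 for granulosa genes.

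Scaling of the lists was added after seeing the data. Median centring shifted the median of all probe sets tested from -0.01 to 0.09. It turned the medians of glutathione peroxidases (0.05), NRF2 genes (0.03), metalloproteinases (0.02), iron handling (0.06) and oviduct and rete genes (0.07), and moved those of acute phase genes (-0.17), surface epithelium (-0.02), leukocytes (-0.11), adipocytes (-0.40), oocytes (0.43) and granulosa (-0.07). Quantile normalization gave -0.03 for NRF2 genes and -0.12 for metalloproteinases.

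For GDNF against control, limma called 0 probe sets in each setting but the replicate block, including each array left out (0 to 0), and called 8 with the replicate number as a block (1355 at an unadjusted p under 0.05). The differences between numbers in control and in GDNF correlated at r = 0.323 over the 18625 probe sets, which are not independent, and 2 pairs do not settle whether the number pairs the samples. With the block the 4 genes kept their values and did not pass (adjusted p = 0.937 to 0.985, limma). Their standard errors were then 0.28 for Mmp7, 0.1 for Lcn2, 0.19 for Gpx2 and 0.15 for Plac8. With each array left out the log2 fold change ran from -1.82 to 2.29 for Mmp7, -0.35 to 0.41 for Lcn2, -1.01 to 1.35 for Gpx2 and -0.92 to 1.23 for Plac8, and it was negative without control replicate 2 (-0.94, -0.34, -0.55 and -0.61) and without GDNF replicate 1. A lone array was assumed to vary like the other group.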

Other observations

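The 5 genes most different in each direction between the replicate numbers in both groups included, beside Mmp7, Cxcl10 and Plet1 already described, Fabp4 and Tnfaip6 on the lower side. Fabp4 had signals of 83.3 and 22.2 in control and 32.2 and 8.8 with GDNF. Tnfaip6, a secreted hyaluronan-binding protein induced by inflammation, had 76.9 and 24.1 in control and 279.5 and 13.5 with GDNF. On GDNF replicate 2 both Fabp4 and Tnfaip6 lay below the filter's 21.4, where MAS5 values are noisy. Tnfaip6 was highest on GDNF replicate 1, the array on which Mmp7, Lcn2, Gpx2 and Plac8 were also highest. Fabp4 was highest on control replicate 1.

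On the higher side, Fam111a, a protease that restricts viral replication, had 144.2 and 596.0 in control and 113.7 and 521.8 with GDNF, differences of 2.04 and 2.19 on the log2 scale. Ccl20 followed with 2.21 and 1.39, where the value in control rests on a low signal of 15.5 on replicate 1. Epsti1, an interferon-induced gene, had 22.4 and 54.7 in control and 30.1 and 86.6 with GDNF, the opposite direction to the interferon-induced chemokines Cxcl10 and Cxcl11. Zfp212 had 2.13 and 1.21 in the ranked probe set, but a mean difference of -0.04 in its other one. Teddm3 had 1.39 and 1.19. These genes were ranked on the difference itself, so the values are descriptions with no test.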
